A study of Rattus norvegicus with 6 samples.

Results

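The nuclei called Adarb2 lineage interneurons here were selected on their UMI counts in single-nucleus RNA libraries of rat brain. A UMI is a molecular tag that counts 1 captured RNA molecule. A nucleus was a member if it had at least 500 UMIs, 250 to 5000 genes and at most 5% of UMIs from Mt- genes. It also needed at least 5 UMIs of Snap25, Syt1 and Rbfox3 together (neuron genes), at least 2 of Gad1 and Gad2 (the enzymes that make GABA), at least 5 of Adarb2, and at least 1 of Vip and Lamp5. No UMI of Slc17a7 or Slc17a6 (vesicular glutamate transporters) and at most 1 of Sst and Pvalb were allowed. Pvalb was not analysed here, so that the last condition rested on Sst. The rule found 378 members among 73649 nuclei past the filters, of which 52858 were neuron nuclei and 10098 were GABAergic neuron nuclei. Of the members, 125 held Vip but no Lamp5 UMI, 250 held Lamp5 but no Vip UMI, and 3 held both. These are called Vip-positive, Lamp5-positive and double-positive nuclei below. The name Adarb2 lineage covers all members by the rule. The markers given below bore it out on the Vip side, while on the Lamp5 side they went both ways.

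The libraries came from male wildtype Wistar rats, 12 weeks old, killed 48 h after a filament had permanently closed the middle cerebral artery on the right (MCAO) or after a Sham operation. Tissue was pooled over 4 Sham rats, 3 rats with moderate infarctions (mMCAO) and 4 rats with severe infarctions (sMCAO), and the left and right hemispheres of each pool were sequenced apart, which gave 6 libraries. Sham L and Sham R formed the group Sham, mMCAO contra and sMCAO contra (left) the group MCAO contra, and mMCAO ipsi and sMCAO ipsi (right) the group MCAO ipsi. The libraries of a group were therefore 2 hemispheres of the same Sham rats or 2 severities of infarction, and p-values measure the spread between these pools and hemispheres, not between single rats.

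Adarb2, a brain RNA-binding protein of the ADAR family, marks GABAergic interneurons that arise in the caudal ganglionic eminence of the embryo, along with some from neighbouring zones. Vip interneurons of this lineage release vasoactive intestinal peptide and in cortex mainly inhibit other interneurons, which disinhibits pyramidal cells. Lamp5 interneurons include the neurogliaform cells, which release GABA diffusely, while Lamp5 RNA is also found in other neurons of cortex and striatum.

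Sham L held 49 members, Sham R 37, mMCAO contra 110, sMCAO contra 44, mMCAO ipsi 57 and sMCAO ipsi 81. Their median depth was 3275 and 2686 UMIs per nucleus in the left and right Sham libraries, 3420 and 3938 in the moderate and severe contra libraries, and 3230 and 5835 in the moderate and severe ipsi libraries. The sMCAO ipsi members stood apart by depth, and counts of calls without that library are given below. Summed over members, the libraries held from 126717 UMIs (Sham R) to 531411 UMIs (sMCAO ipsi). Of the 378 members, 101 had at least 2 UMIs of Vip and Lamp5 together, and the others met the last condition of the rule by a single UMI. Vip reached 2 or more UMIs in 1 and 3 nuclei of the left and right Sham libraries, in 30 and 7 of the moderate and severe contra libraries, and in 6 and 23 of the moderate and severe ipsi libraries. Lamp5 did so in 1 and 1, in 12 and 2, and in 6 and 8 nuclei in the same order. Between 118 and 280 cell barcodes were shared by any 2 libraries, and 377 of the 378 member barcodes were distinct. Doublets were left in, and an alternative without the 5% of nuclei with the highest doublet score in each library kept 324 members.

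The name of these nuclei was checked by setting Vip and Lamp5 in Adarb2-rich nuclei beside other classes of nuclei, with each nucleus thinned to 2000 UMIs. Among GABAergic neuron nuclei with at least 5 Adarb2 UMIs, 2.95% (79 of 2677, exact Clopper-Pearson 95% interval 2.34 to 3.66) held a Vip UMI. The share was 0.141% (6 of 4242) in GABAergic nuclei without Adarb2, 0.169% in glutamatergic nuclei and 0.108% in nuclei without a neuronal UMI. It was 0 of 946 in medium spiny neuron nuclei, which here allows a share of up to 0.389%. Medium spiny neurons are the projection neurons of the striatum, and the nuclei taken as such by their Drd1 and Drd2 UMIs were mostly of the Drd2 kind, with Drd2 in 85.6% and Drd1 in 3.17%. Vip UMIs were thus concentrated in nuclei rich in Adarb2.

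Lamp5 UMIs were spread more widely. They were found in 4.41% of the nuclei with at least 5 Adarb2 UMIs (118 of 2677, interval 3.66 to 5.26), in 3.11% of GABAergic nuclei without Adarb2 (2.61 to 3.68), in 6.98% of medium spiny neuron nuclei (5.44 to 8.79) and in 2.61% of glutamatergic nuclei (2.20 to 3.07). The share in nuclei without a neuronal UMI was 0.108%. Of these 922 thinned nuclei, which also gave the Vip share, 766 came from sMCAO ipsi. Before thinning, Lamp5 was found in 8.47% of the Adarb2-rich nuclei (7.50 to 9.53) and 5.69% of GABAergic nuclei without Adarb2 (5.05 to 6.39). It was found in 11.6% of the medium spiny and 7.63% of the glutamatergic nuclei. A Lamp5 UMI therefore did not set the Adarb2-rich nuclei apart from other neurons, and the intervals cover counting error only.

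**Figure D1:**
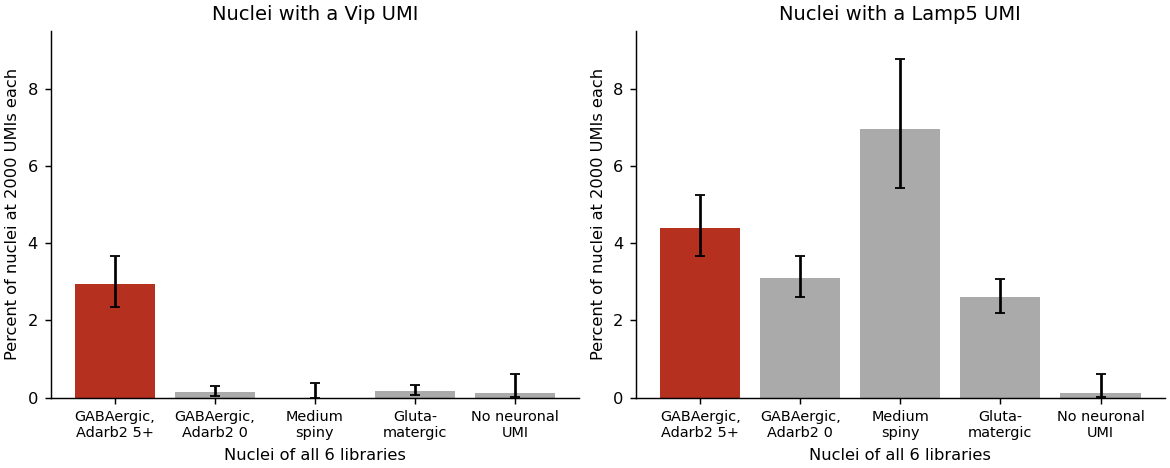
Percent of nuclei with a Vip UMI (left) or a Lamp5 UMI (right) in 5 classes of nuclei, all 6 libraries together, each nucleus thinned to 2000 UMIs. Bars start at 0 and error bars are exact 95% binomial intervals. Vip was found in 2.95% of Adarb2-rich GABAergic nuclei and in at most 0.169% of the other classes, while Lamp5 was found in 6.98% of medium spiny nuclei against 4.41% of Adarb2-rich nuclei.

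Among the other markers of the lineage, Prox1, Npas1 and Htr3a were more frequent on the Vip side. Nr2f2, Sp8 and Cxcl14, also on the lineage list, were not counted in thinned nuclei. At 2000 UMIs per nucleus, Prox1, a transcription factor of caudal eminence interneurons, was found in 18% of Vip-positive, 4.87% of Lamp5-positive and 5.52% of the GABAergic nuclei that had at least 5 Adarb2 UMIs but neither Vip nor Lamp5 (called neither nuclei here, 2608 in all). Npas1, a second transcription factor of the lineage, was found in 15.3%, 0.885% and 3.21% of these classes, and Htr3a, the ionotropic serotonin receptor of the lineage, in 10.8%, 0.442% and 1.75%. Lhx6, which marks the medial eminence lineage of Sst and Pvalb cells, was found in 0.901% of Vip-positive, 0.885% of Lamp5-positive and 3.21% of neither nuclei. Sox6, a factor of the medial eminence lineage too, was found in 11.7%, 12.4% and 22.55% of these classes.

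The markers of Lamp5 interneurons were mixed in Lamp5-positive nuclei. Sv2c was found in 54.4% and Reln in 34.5% of these nuclei after thinning, against 28.6% and 25.4% of neither nuclei. In medium spiny nuclei, Sv2c was found in 46.5% and Reln in 10.6%. The classic markers Ndnf, Npy, Id2 and Cplx3 were low. Ndnf was at 14.8 CPM (UMIs per 1000000 UMIs of the same nuclei), Npy at 5.23, Id2 at 8.71 and Cplx3 at 4.36, summed over all Lamp5-positive nuclei, while Ndnf in neither nuclei was at 7.66 CPM and Npy at 5.20 CPM. Meis2 was found in 49.6% of thinned Lamp5-positive nuclei, Rarb in 48.7% and Foxp2 in 47.8%, all transcription factors of striatal projection neurons among other cells. The same 3 genes were found in 43.9%, 34.8% and 38.3% of neither nuclei and in 88.8%, 92.1% and 39.4% of medium spiny nuclei. Meis2 and Rarb were found in glutamatergic nuclei in 34.8% and 4.15%. Drd2, the dopamine receptor that defines one class of medium spiny neuron, was part of the rule by which medium spiny nuclei were taken. It was found in 4.87% of Lamp5-positive and 4.11% of neither nuclei. The data therefore bore out the name on the Vip side. On the Lamp5 side the markers went both ways, and the Lamp5-positive nuclei are named only by their rule.

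Summed over whole marker lists, Vip-positive nuclei had 1253 CPM of the 8 Vip type genes, against 250.1 CPM in Lamp5-positive, 302.1 CPM in neither and 403 CPM in medium spiny nuclei. Synpr, a synaptic vesicle protein, gave 555 of the 672 UMIs of this list in Vip-positive nuclei. The 11 Lamp5 type genes summed to 1398 CPM in Lamp5-positive nuclei, 393 CPM in Vip-positive nuclei and 778 CPM in neither nuclei, of which Reln was the most abundant. The 10 medium spiny genes summed to 1713 CPM in Vip-positive, 4031 CPM in Lamp5-positive, 2760 CPM in neither and 9093 CPM in medium spiny nuclei. The most abundant gene of the medium spiny list was Pde10a in all 3 Adarb2-rich classes. The Adarb2 lineage list summed to 252 CPM in Vip-positive and 57.5 CPM in Lamp5-positive nuclei, and the Sncg type list, nearly all Cnr1, to 554 and 124 CPM. The medial eminence list summed to 775 and 1396 CPM, led by Nxph1.

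**Figure D2:**
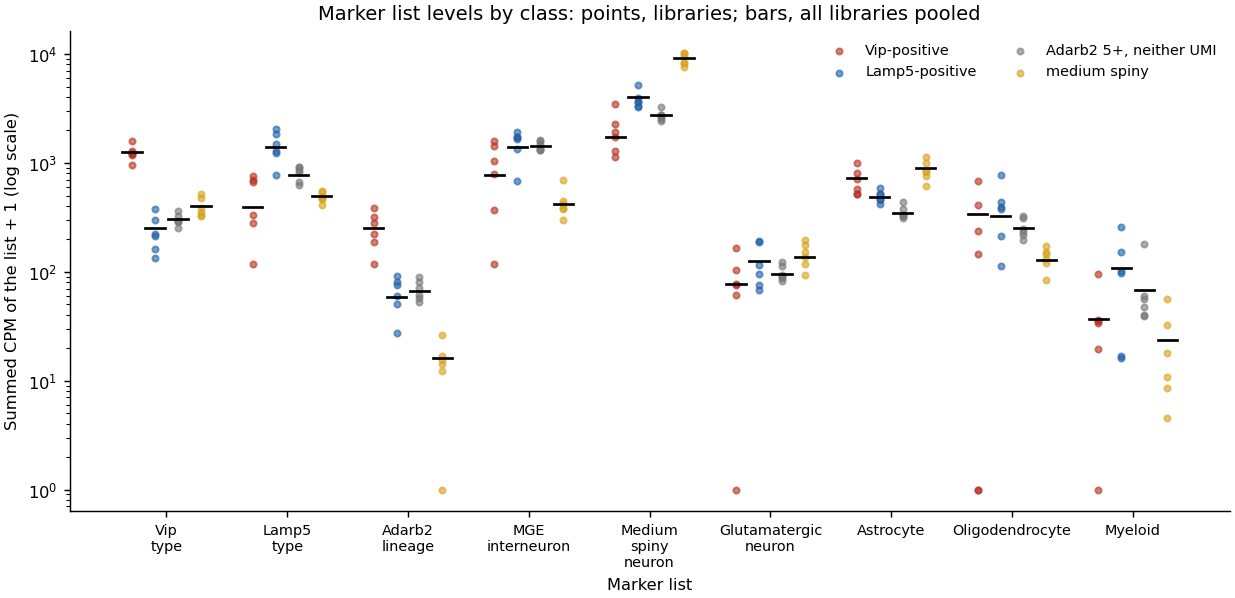
Summed CPM of 9 marker lists (log scale, after adding 1) in Vip-positive, Lamp5-positive, neither and medium spiny nuclei. Points are the 6 libraries and bars all libraries pooled. Vip-positive nuclei lead the Vip type list with 1253 CPM, Lamp5-positive nuclei lead the Lamp5 type list with 1398 CPM, and medium spiny nuclei lead their own list with 9093 CPM.

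Markers of glia and vessels were present. The 7 astrocyte genes summed to 729 CPM in Vip-positive, 489 CPM in Lamp5-positive and 345 CPM in neither nuclei, with Aqp4 at 3.73 CPM and Gja1 at 9.32 CPM in Vip-positive nuclei. The most abundant astrocyte gene was Slc1a2 in Vip-positive and Slc4a4 in Lamp5-positive nuclei. Of 204 Slc1a2 UMIs in Vip-positive nuclei, 52 came from 1 nucleus of sMCAO ipsi, and 74 of 125 nuclei held at least 1. The oligodendrocyte list summed to 341 CPM and 323 CPM, and its most abundant gene in Lamp5-positive nuclei was Mbp. The glutamatergic list, with Slc17a7 and Slc17a6 at 0 by the rule, summed to 76.4 CPM in Vip-positive and 124 CPM in Lamp5-positive nuclei, and the oligodendrocyte precursor list to 80.2 and 97.6 CPM. The myeloid list summed to 35.4 CPM in Vip-positive and 108 CPM in Lamp5-positive nuclei, with Tmem119 at 0 in both. Of the 5 vascular genes with a row, Vip-positive nuclei held 5 UMIs and Lamp5-positive nuclei 11. The part that RNA of other cells had in the results was not tested.

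Adarb2, on which members were selected, was higher in the Vip-positive nuclei, where it ran from 7 to 437 UMIs per nucleus with a median of 45, than in the Lamp5-positive nuclei, where it ran from 5 to 153 with a median of 14. At the threshold itself, 38 members had exactly 5 Adarb2 UMIs, all of them Lamp5-positive, and 12 had 6, again all Lamp5-positive. Just outside, 36 nuclei met every other condition with 4 Adarb2 UMIs, of which 1 was Vip-positive, and 35 with 3, of which none was. Nuclei near the threshold were thus almost entirely Lamp5-positive.

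Members made up 2.64% of GABAergic neuron nuclei in Sham L (49 of 1859, exact 95% interval 1.96 to 3.47) and 2.54% in Sham R (37 of 1459, 1.79 to 3.48). The share was 4.74% in mMCAO contra (110 of 2321, 3.91 to 5.68) and 2.93% in sMCAO contra (44 of 1504, 2.13 to 3.91). It was 3.30% in mMCAO ipsi (57 of 1725, 2.51 to 4.26) and 6.59% in sMCAO ipsi (81 of 1230, 5.26 to 8.12). The highest shares were in mMCAO contra and sMCAO ipsi, 1 library of each operated group, and the other libraries of those groups lay near Sham.

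The libraries differed in depth, and the share moved with it. With every nucleus at 2000 UMIs, members were 1.13% and 1.30% of GABAergic nuclei in the left and right Sham libraries, 2.86% and 1.5% in the moderate and severe contra libraries, and 1.86% and 3.10% in the moderate and severe ipsi libraries. mMCAO contra and sMCAO ipsi stayed highest, while the distance between sMCAO ipsi and mMCAO contra shrank to within their intervals. Of all neuron nuclei, members made up 0.465% in Sham L and 2.52% in sMCAO ipsi, where only 3215 nuclei were neuronal against 10534 in Sham L. The shares were not tested between groups, where with 2 libraries against 2 the smallest two-sided exact permutation p is 1 in 3. GABAergic neuron nuclei had a median of 5956 UMIs in sMCAO ipsi against 2309 to 3677 UMIs in the other libraries. Different numbers of cells, different amounts of RNA per nucleus and a different dissection cannot be told apart here.

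Of the members, 30.6% and 24.3% were Vip-positive (double-positive nuclei included) in the left and right Sham libraries, 42.7% and 31.8% in the moderate and severe contra libraries, and 22.8% and 37.0% in the moderate and severe ipsi libraries. Both contra values lay above both Sham values, but the intervals of sMCAO contra (18.6 to 47.6) and Sham L (18.3 to 45.4) were nearly the same. The ipsi values overlapped those of the other groups. At 2000 UMIs per nucleus the share was 60% in Sham L and 75% in sMCAO ipsi, with intervals that spanned most of the range, and no order can be read from it.

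**Figure D3:**
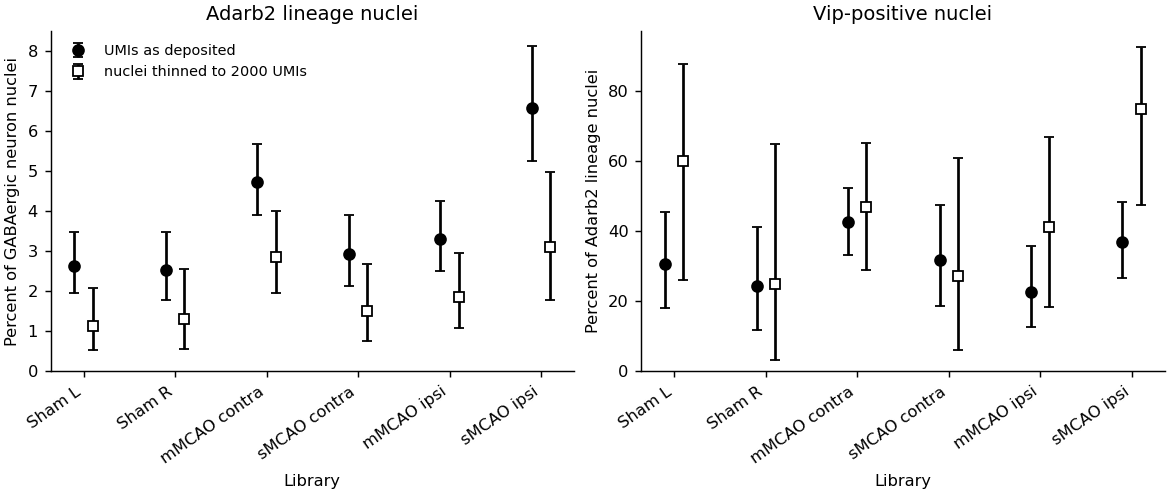
Members as percent of GABAergic neuron nuclei (left) and Vip-positive nuclei as percent of members (right) in each library, as deposited (filled) and at 2000 UMIs per nucleus (open), with exact 95% binomial intervals. mMCAO contra and sMCAO ipsi lie highest on the left at 4.74% and 6.59%. On the right the intervals overlap, but as deposited those of mMCAO contra (33.3 to 52.5) and mMCAO ipsi (12.7 to 35.8) only slightly.

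Vip-positive and Lamp5-positive nuclei differed widely in genes that the rule did not use. Their UMIs were summed per library and compared within libraries by edgeR's quasi-likelihood test, with genes called at a Benjamini-Hochberg adjusted p under 0.05 if they also differed by 0.6 or more log2 units in either direction. Of 2781 genes tested in 5 libraries, 141 were higher (5.07%) and 144 lower (5.18%) in Vip-positive nuclei. Sham R, with 9 Vip-positive nuclei, was below the minimum of 10 and was left out. The vesicle gene Synpr, the receptors Chrm3 and Cnr1 and the adhesion genes Cntn4 and Nrxn3 were among those higher in Vip-positive nuclei, while Sv2c, Reln, Meis2 and 4 calcium channel genes were among those lower. DESeq2 called 185 genes. Without mMCAO contra 165 genes were called by edgeR, 159 of them the same, without sMCAO ipsi 223, 195 of them the same, and with Sham R in the fit 298.

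Synpr was 2.37 ± 0.26 (SE) log2 units higher in Vip-positive nuclei (adjusted p 3.32e-05). Its level was 1394 CPM in Vip-positive against 172 CPM in Lamp5-positive nuclei of Sham L, 1080 against 118 CPM and 1043 against 174 CPM in the moderate and severe contra libraries, and 817 against 266 CPM and 935 against 351 CPM in the moderate and severe ipsi libraries. The lowest Vip-positive sum lay above the highest Lamp5-positive sum, and in Sham R, outside the fit, the levels were 1032 and 119 CPM. Sv2c, a vesicle protein of basal ganglia and some interneurons, showed the opposite order at −2.46 ± 0.29 (adjusted p 5.49e-05). Its Lamp5-positive level ran from 419 CPM in mMCAO ipsi to 674 CPM in Sham L, and its Vip-positive level from 23.3 CPM in mMCAO ipsi to 204 CPM in Sham L.

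Of the receptors for neuromodulators, 3 of 5 tested were higher in Vip-positive nuclei and none was lower. Over all genes tested, 5.07% were higher and 5.18% lower. Chrm3, a muscarinic acetylcholine receptor, stood at 1078, 1213, 1180, 1307 and 1279 CPM in Vip-positive nuclei of Sham L, mMCAO contra, sMCAO contra, mMCAO ipsi and sMCAO ipsi, and at 277, 221, 529, 311 and 130 CPM in Lamp5-positive nuclei. The difference of 2.25 ± 0.26 log2 units was called. Cnr1, the cannabinoid receptor of Cck-type basket cells among others, was 1.94 ± 0.33 higher, from 256 CPM in sMCAO contra to 798 CPM in sMCAO ipsi against 65.0 to 164 CPM in Lamp5-positive nuclei. Chrna7, a nicotinic receptor subunit, was 0.96 ± 0.25 higher. The median of the 5 genes was 0.96 log2 units, against 0.00 over all genes tested.

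Of 20 potassium channel genes tested, 4 were higher in Vip-positive nuclei (Kcnt2 by 2.55 ± 0.30, Kcnc2 by 1.09, Kcnip1 by 0.96 and Kcnn2 by 0.94). Another 2 were lower (Kcnn3 at −1.16 and Kcnd2 at −1.08). Over all genes tested, 5.07% were higher and 5.18% lower. Kcnt2, a sodium-activated potassium channel, ran from 632 to 1594 CPM in Vip-positive and from 112 to 224 CPM in Lamp5-positive nuclei of the 5 libraries. None of 14 sodium and calcium channel genes was higher and 5 were lower, with a list median of −0.29. These were the calcium channel genes Cacna2d1 (−1.29), Cacna1e (−1.27), Cacnb2 (−0.99) and Cacnb4 (−0.95) and the sodium channel Scn1a (−0.60).

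Among 30 synaptic adhesion and guidance genes, 7 were higher and 4 lower in Vip-positive nuclei, with a median of 0.15. Nrxn2 and Nrxn3, presynaptic neurexins, were higher by 0.85 and 0.89 log2 units, Cntn4 by 1.43, and Erbb4, the receptor of neuregulins on interneurons, by 0.92 ± 0.20. Nrg1, a ligand of Erbb4, was lower at −1.19 ± 0.26. Slit2 (−1.57), Slit3 (−1.08) and Unc5d (−1.25), guidance genes, were lower too. The glutamate receptors gave 2 genes higher, among them Grm8 (0.83), and 2 lower (Grm5 at −1.15 and Grin2a at −1.26) of 18, with a median of −0.07, beside 5.07% higher and 5.18% lower of all genes tested. Of 10 GABA receptor genes, Gabra2 and Gabra4 were lower and none was higher, and of 9 genes for GABA synthesis, release and uptake only the release factor Unc13c was called, at −1.77.

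The transcription factors Zeb2 and Npas3 were higher in Vip-positive nuclei, Npas3 by 2.03 ± 0.24, and Tox2 and Tox3 were lower, of 11 tested. Over all genes tested, 5.07% were higher and 5.18% lower. Of 5 medium spiny genes tested, 4 were lower in Vip-positive nuclei and none was higher, with a list median of −1.63. Meis2 stood at 297, 238, 274, 210 and 197 CPM in Vip-positive nuclei of Sham L, mMCAO contra, sMCAO contra, mMCAO ipsi and sMCAO ipsi, and at 711, 571, 766, 900 and 1349 CPM in Lamp5-positive nuclei, a difference of −1.75 ± 0.24. Rarb differed by −1.65 ± 0.37, but in Sham L it was higher in the Vip-positive nuclei (911 against 748 CPM). Bcl11b and Rgs9 differed by −1.63 and −1.38. Reln, a secreted glycoprotein of many Lamp5 cells, was lower by 1.77 ± 0.36 log2 units in Vip-positive nuclei, and its Lamp5-positive level fell between 260 CPM in sMCAO ipsi and 1386 CPM in mMCAO contra.

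Several other genes had large differences. Dpf3 had 69 UMIs in Vip-positive and 2 in Lamp5-positive nuclei of the fitted libraries, a ratio of 70.8 with a counting interval of 18.9 to 596. Itga8 (4.03 ± 0.50), an integrin, Igsf3 (2.90), Shisa6 (2.77), an auxiliary protein of AMPA receptors, Slc44a5 (2.59), Ccbe1 (2.41), Slc1a2 (2.27), a glutamate transporter best known from astrocytes, and Zfp804a (2.24) were higher as well, with the feature ENSRNOG00000014851 at 4.48. Arhgap6, a GTPase-activating protein, was lower at −3.64 ± 0.37, as were Pard3b (−2.18), Foxp2 (−2.10), Ptchd4 (−2.01), Stard13 (−1.80) and Cyct (−1.75). The 24 genes named for their size were chosen to have 1 direction in the 5 fitted libraries. In Sham R, outside the fit, 23 had the same direction, and Itga8 was at 0 in both classes. Sham R came from the same rats as Sham L, which was in the fit, so it is no independent check. Few genes of the following lists passed the filter on low counts, and none of those was called: 1 of 21 neuropeptide genes, 2 of 7 oligodendrocyte, 4 of 17 heat shock, 1 of 22 immediate early, 2 of 26 injury, 3 of 23 glycolysis and 3 of 21 cytokine response genes.

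**Figure D4:**
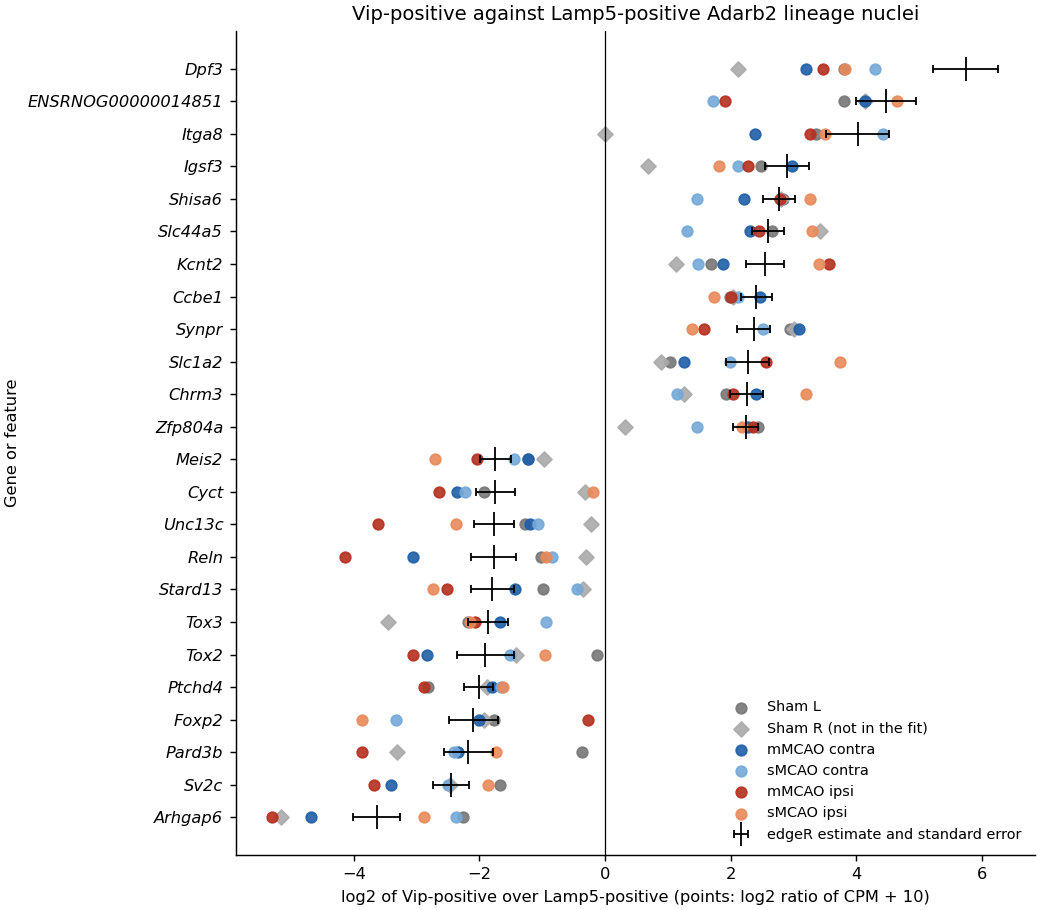
The 12 largest increases and 12 largest decreases in Vip-positive against Lamp5-positive nuclei. Points are single libraries as log2 ratios after 10 CPM were added to each class, and black marks are the edgeR estimates with standard errors, which lie farther out for genes near 0 in a class such as Dpf3. The 12 genes of each direction were chosen for having 1 sign in all fitted libraries.

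The classes carried Vip and Lamp5 by definition, so each was also compared with the neither nuclei of the same libraries, a comparison that was added after the data were seen and that shares its reference between both classes. In Vip-positive nuclei, 208 of 8380 genes were higher (2.48%) and 240 lower (2.86%), again in 5 libraries. Lineage markers were among the former: of 4 Adarb2 lineage genes tested, 3 were higher and none lower, with a median of 2.01 log2 units against −0.08 over all genes tested. Prox1 stood at 130, 163, 85.5, 46.7 and 82.0 CPM in Vip-positive nuclei of Sham L, mMCAO contra, sMCAO contra, mMCAO ipsi and sMCAO ipsi, and at 30.8, 23.5, 34.2, 21.8 and 7.92 CPM in neither nuclei. The difference was 2.39 ± 0.30 log2 units (adjusted p 3.32e-12), and the ranges did not overlap. Without sMCAO ipsi 265 genes were called in place of 448, and DESeq2 called 155 higher and 94 lower. Htr3a was 2.16 ± 0.44 higher and Npas1 1.87 ± 0.36 higher, although Npas1 was at 0 in the Vip-positive nuclei of mMCAO ipsi.

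Of the 4 Vip type genes tested, Synpr (2.08), Igf1 (1.97) and Chat (1.59 ± 0.38) were higher. Chat, which makes acetylcholine and is found in a share of Vip cells, ran from 23.3 to 103 CPM in Vip-positive and from 11.1 to 28.5 CPM in neither nuclei of the fitted libraries. Penk, the precursor of enkephalins, was 1.40 higher. Of 14 neuromodulator receptors, 6 were higher, among them Adra1b (2.32), an adrenergic receptor, Cnr1 (1.33), Chrm3 (1.19) and Chrna5 (1.77). Another 2 were lower, Chrm2 (−2.19 ± 0.34) and Htr4 (−0.89). Over all genes tested in this comparison, 2.48% were higher and 2.86% lower. Of 22 transcription factors, 7 were higher, with Dlx1 at 1.89, Zeb2 at 1.43 and Nr2f1 at 1.36, and 5 were lower, with Tox2 at −1.63 and Sox6, a factor of the medial eminence lineage, at −1.15. Of 6 medial eminence genes tested, Sox6 and Nxph1 (−1.21) were lower and Elfn1 (1.02) was higher.

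The largest increases over neither nuclei were Itga8 (3.46), the secreted protease Htra1 (3.25), Ccbe1 (2.82), Gpd1 (2.81), the cyclic GMP phosphodiesterase Pde5a (2.67 ± 0.19), Col5a1 (2.63) and Slc1a2 (2.52). Chst9 had no UMI in Vip-positive nuclei of any library and 617 in neither nuclei, at least 8.19-fold lower by its counting interval and 10.1-fold lower at a floor of 3 UMIs over the class. Zdbf2 had 3 against 661 UMIs, 10.8-fold lower with a counting interval of 3.69 to 52.6. The astrocyte gene Slc1a3 (1.51) was called as well, but rested on sMCAO ipsi, where Vip-positive nuclei held 164 CPM. Without that library it came to −0.72. In Sham L it was at 0 in Vip-positive nuclei. Of the 24 genes named for their size over neither nuclei, 21 had the same direction in Sham R, outside the fit. Sham R shares its rats with Sham L, so this is no independent check either.

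Lamp5-positive nuclei were set against neither nuclei in all 6 libraries. Of 7228 genes tested, 98 were higher in Lamp5-positive nuclei (1.36%) and 112 lower (1.55%), and without sMCAO ipsi 152 were called in all. Egfr, the epidermal growth factor receptor, stood at 404, 239, 354, 316, 215 and 118 CPM in Lamp5-positive nuclei of Sham L, Sham R, mMCAO contra, sMCAO contra, mMCAO ipsi and sMCAO ipsi, and at 129, 185, 128, 144, 89.5 and 50.3 CPM in neither nuclei. It was higher by 1.26 ± 0.13 log2 units (adjusted p 8.28e-08). Nexn (1.42), Sv2c (1.14), the adhesion gene Igsf11 (1.02), Fgf13 (0.98), a modulator of sodium channels, and Zbtb16 (0.95) were higher as well. Of 3 Lamp5 type genes tested, Sv2c and Reln (0.69) were higher.

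Of 5 genes of the medial eminence lineage tested, 3 were lower in Lamp5-positive nuclei and none was called higher, with a median of −1.41 and Nxph1 at 0.38 (adjusted p 0.0772). Sox6 was lower by 1.41 ± 0.17 log2 units, from 41.3 to 195 CPM against 268 to 371 CPM. Lhx6 had 2 UMIs in Lamp5-positive and 190 in neither nuclei, 9.61-fold lower with a counting interval of 2.62 to 79.9. The proteoglycan Gpc5 (−1.90 ± 0.18), the sulfotransferase Ndst4 (−2.18), Cadps2 (−1.74), which primes dense-core vesicles, and Il1rapl2 (−1.62) were lower as well. Of 10 neuromodulator receptors none was higher and 4 were lower, namely Chrm2 (−1.29), Htr7 (−1.28), Chrm3 (−0.82) and Cnr1 (−0.60). Over all genes tested in this comparison, 1.36% were higher and 1.55% lower. Of 9 medium spiny genes, Ppp1r1b (0.99 ± 0.24), which encodes the dopamine-regulated phosphoprotein DARPP-32, and Rarb (0.73) were higher and none was lower.

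Between the groups of rats, the number of genes called in members was low with all 6 libraries and depended on which libraries were used. With UMIs summed over all members of each library and all 6 libraries in 1 fit, 3978 genes were tested. MCAO ipsi against Sham gave 2 higher and 1 lower gene (0.0754%), MCAO ipsi against MCAO contra 3 higher and 1 lower (0.101%), and MCAO contra against Sham none (0%). Without sMCAO ipsi the counts were 4, 13 and 9, and without mMCAO ipsi 48, 72 and 9. In these fits MCAO ipsi is a single library that is assumed to vary like the libraries of the other groups. MCAO ipsi against MCAO contra gave 54 without Sham L and 48 without Sham R. With at least 3 Adarb2 UMIs required, they were 35, 36 and 1. For MCAO contra against Sham, DESeq2 called none either, and 119 genes lay higher and 97 lower by edgeR when p was not adjusted and held to 0.05. The comparisons share libraries and are not independent of each other.

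Il1rapl2, an interleukin-1 receptor accessory-like protein of synapses, was the gene that fell. It stood at 213 and 205 CPM in Sham L and Sham R, at 275 and 621 CPM in mMCAO contra and sMCAO contra, and at 50.1 and 47.0 CPM in mMCAO ipsi and sMCAO ipsi. Both MCAO ipsi libraries lay below all others, at −2.12 ± 0.40 log2 units against Sham (adjusted p 0.0324) and −3.11 ± 0.34 against MCAO contra (adjusted p 1.76e-05). It was carried by few nuclei, with 11 UMIs in 5 nuclei of mMCAO ipsi and 25 UMIs in 8 nuclei of sMCAO ipsi. Sham L had 40 UMIs in 9 nuclei. In Sham R, 22 of 26 UMIs came from Vip-positive nuclei. Lamp5-positive nuclei stood at 262 CPM in Sham L and 39.8 CPM in Sham R. Their mMCAO ipsi and sMCAO ipsi levels, 56.6 and 59.0 CPM, both lay above Sham R. The difference from Sham was not called without sMCAO ipsi (−2.09, adjusted p 0.0763) or without likely doublets (−0.92, adjusted p 0.652), while that from MCAO contra was called in both, with mMCAO ipsi as the only ipsi library in the former (adjusted p 3.85e-05 and 9.66e-06). In neither nuclei, the level was 563 and 686 CPM in the Sham libraries, 622 and 467 CPM in the moderate and severe contra libraries, and 338 and 478 CPM in the moderate and severe ipsi libraries, so that the severe ipsi value was not below the severe contra value.

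Ebf1, a transcription factor of striatal projection neurons, was higher in MCAO ipsi than in MCAO contra by 2.16 ± 0.31 (adjusted p 0.000941). Its levels were 137 CPM in mMCAO ipsi and 245 CPM in sMCAO ipsi against 46.5 CPM in mMCAO contra and 43.2 CPM in sMCAO contra, with Sham L at 80.0 and Sham R at 118. Lamp5-positive nuclei held 198 of its UMIs and Vip-positive nuclei 19. The call was lost without sMCAO ipsi (1.54, adjusted p 0.0559) and by DESeq2 (2.11, adjusted p 0.107). Neither nuclei stood at 91.3 and 68.7 CPM in Sham, at 105 and 88 CPM in the moderate and severe contra libraries and at 91.2 and 125 CPM in the moderate and severe ipsi libraries, so that the moderate ipsi value lay below the moderate contra value. In medium spiny nuclei, mostly of the Drd2 kind here, it was at 5.97 CPM in sMCAO ipsi and at most 33.5 CPM in the other libraries. Over all nuclei it was at 103 CPM in sMCAO ipsi against 35.1 to 60.0 CPM in the others. Over the same libraries the Lamp5-positive nuclei of sMCAO ipsi had the highest summed level of the medium spiny list, 5187 CPM against 3242 to 3954 CPM in the other Lamp5-positive sums. The part that the mix of nuclei had in the result was not tested.

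The other called features were ENSRNOG00000043866 and ENSRNOG00000030478, which the files name after a record of the mitochondrial genome and which the limit on Mt- genes did not count. ENSRNOG00000043866 stood at 245 and 276 CPM in Sham L and Sham R, 252 and 702 CPM in mMCAO contra and sMCAO contra, and 970 and 2505 CPM in mMCAO ipsi and sMCAO ipsi, 2.77 ± 0.40 log2 units above Sham in MCAO ipsi (adjusted p 0.0025). ENSRNOG00000030478 rose by 2.53 ± 0.41 over Sham. By DESeq2 the former was not called against Sham, the latter was called, and neither was called against MCAO contra. Summed over all nuclei of the libraries, both features were also highest in sMCAO ipsi and next in mMCAO ipsi, the former at 4280 and 599.7 CPM against 204 to 369 CPM in the others.

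**Figure D5:**
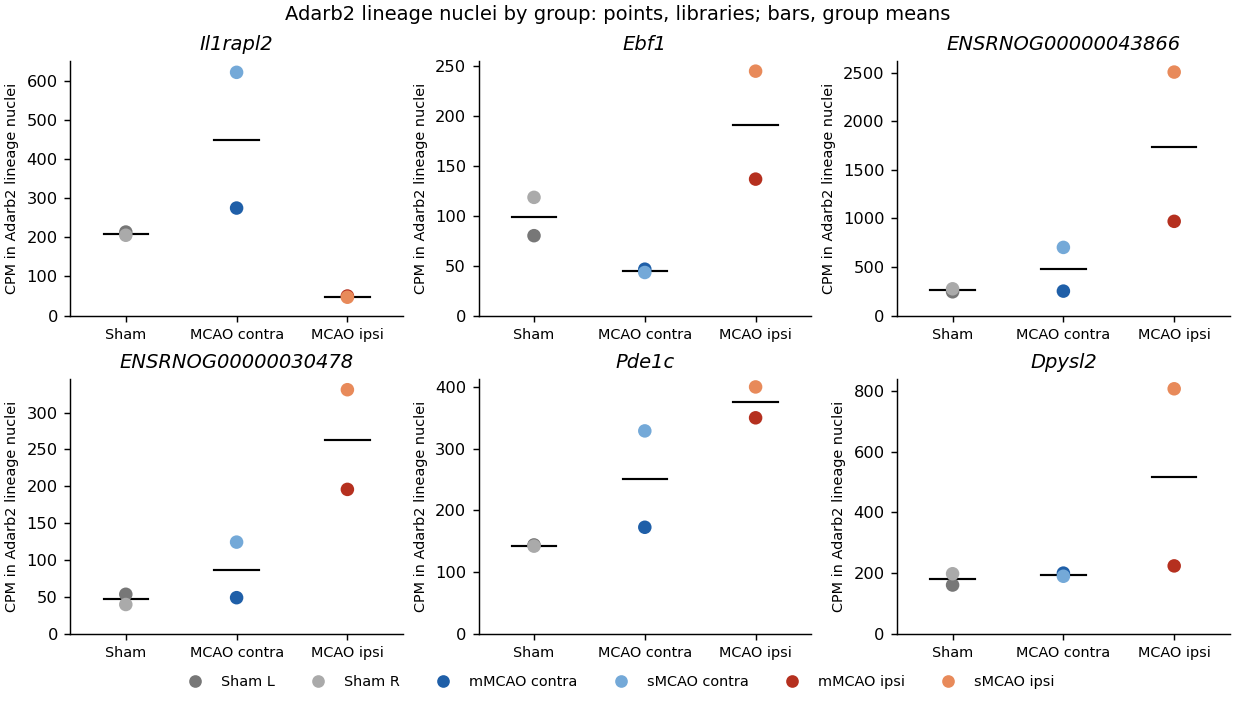
CPM in the summed members of each library for 6 genes or features, by group. Points are libraries and bars are means of 2 libraries. Il1rapl2 lies at 50.1 and 47.0 CPM in MCAO ipsi, below every other library, while the Dpysl2 level of sMCAO ipsi (807 CPM) comes mostly from 1 nucleus.

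Among the genes with the smallest p that were not called, Pde1c (376 against 143 CPM, adjusted p 0.0733), Dach1 (282 against 92.9 CPM) and Serpini1 (144 against 47.7 CPM), the neuronal serpin that inhibits tissue plasminogen activator, had higher means in MCAO ipsi than in Sham. Dzip1 (73.1 against 174 CPM) and the adhesion gene Ntm (1281 against 2142 CPM) had lower means. These genes were picked for their small p, so the order of their libraries is no further evidence. In mMCAO ipsi, 46 of 77 Pde1c UMIs came from 1 nucleus. Dpysl2 had 333 of its 429 UMIs in sMCAO ipsi in 1 nucleus and is a value of that nucleus. Against MCAO contra, Zfp804b (225 against 682 CPM) and Cdh13 (272 against 509 CPM) had lower means in MCAO ipsi without a call.

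None of the lists of stress or injury genes held a called gene in any comparison of groups, where at most 0.101% of all genes tested were called, so these counts do not set the lists apart from other genes. For MCAO ipsi against Sham, 7 of 17 heat shock genes were abundant enough to be tested (median 0.23 log2 units), 1 of 22 immediate early genes, 2 of 26 injury genes (median 0.18), 6 of 23 glycolysis and hypoxia genes (median 0.32) and 3 of 21 cytokine response genes (median 0.18), against a median of 0.00 over all genes. Fos held 2 UMIs in Sham L and 6 in sMCAO ipsi and none in the other 4 libraries, and Atf3 none in any. Hspa8, a constitutive chaperone, was at 10.7 and 7.89 CPM in the Sham libraries, 6.64 and 32.4 CPM in the moderate and severe contra libraries, and 31.9 and 32.0 CPM in the ipsi libraries. Most of these genes lay below the filter on low counts. The receptor, channel, adhesion and release lists held 7 to 30 tested genes each and no called gene, again beside that background, with medians between −0.35 and 0.16 for MCAO ipsi against Sham.

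The change from Sham to MCAO ipsi was set beside that of 1011 medium spiny nuclei in a test of the difference, also added after the data were seen, because the class planned for it, Sst nuclei, had 1 nucleus in the left Sham library and 0 in the right. Of 7716 genes, 1 was called (0.013%). Car10, a carbonic anhydrase-related protein that binds neurexins, differed by 2.28 ± 0.36 log2 units (adjusted p 0.00038). In members it stood at 197 and 229 CPM in Sham and at 250.5 and 229.6 CPM in the moderate and severe ipsi libraries, and in medium spiny nuclei at 151, 346, 95.9 and 27.5 CPM in the same order. The ipsi values lay below both Sham values in medium spiny nuclei and above both in members. Medium spiny nuclei of the moderate and severe contra libraries were at 103 and 193 CPM, the former also below both Sham values, and neither nuclei at 308 and 271 CPM in Sham and at 241 and 223 CPM in MCAO ipsi. The call was lost without sMCAO ipsi (1.49, adjusted p 0.527). For Il1rapl2 the medium spiny nuclei were at 335 and 437 CPM in Sham, at 135 and 90.2 CPM in MCAO contra and at 50.1 and 78.8 CPM in MCAO ipsi.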

How the data were processed

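Nuclei were isolated from frozen brain tissue, and droplet-based 5′ libraries were sequenced. The submitters' processing notes name Cell Ranger 7.0.0 and the genome build mRatBN7.2. The deposited values are raw UMI counts of 30560 genes per nucleus, before the removal of free RNA and doublets that the authors describe. Here, nuclei were filtered by the limits given above, and the UMIs of each class were added up in every library with at least 10 such nuclei. Sums were tested with edgeR 4.0.16 (R 4.3.3, filterByExpr, TMM, quasi-likelihood test, Benjamini-Hochberg adjustment over all genes tested). The groups were fitted without covariates and the classes with the library as block. The 12 genes of the rule were left out of calls. Alternatives were DESeq2 1.42.0, RLE normalization, no filter on low counts, other UMI thresholds, thinning, removal of likely doublets, blocks and leaving out each library. Genes named were the 12 largest called changes in each direction at 50 CPM or more with the same direction in every library, or, with fewer than 5 calls, the 5 smallest p in each direction, and all called members of 12 marker and 14 function lists. The members, lists and comparisons were chosen with earlier results of these data known. Contra and ipsi libraries of one pool of rats were paired by design. Intervals and floors cover counting error only. Symbols without a row, such as Pvalb, were not analysed here, and some called genes are not reported here.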

Additional observations from a re-analysis of the deposited data

Results flagged for a closer look

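Car10 was singled out because its change from Sham to MCAO ipsi differed between the members and the medium spiny nuclei, by 2.28 log2 units in a test of the interaction (edgeR's quasi-likelihood test, adjusted p 0.00038). Each class had 2 Sham and 2 MCAO ipsi libraries. Medium spiny nuclei stood at 27.5 CPM in sMCAO ipsi, where they held 23 Car10 UMIs, while members stayed between 171 and 259 CPM in all 6 libraries. The call was absent with DESeq2, without the library block, without Sham replicate 2 and without MCAO ipsi replicate 2 (sMCAO ipsi). The cause was not tested.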

How the results depend on the processing

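Counts of called genes moved by more than 1.5 times as follows; the causes were not tested. For MCAO ipsi against Sham (3 calls) they were 13 without a filter on low counts, 35 with at least 3 Adarb2 UMIs and 7 without likely doublets, and 4 to 48 with 1 library left out. The highest came without mMCAO ipsi, and the same 3 genes were among the calls of every left-out fit except that without sMCAO ipsi (2 of 3). For MCAO ipsi against MCAO contra (4 calls) they were 1 by DESeq2, 28 without the filter, 36 and 2 with at least 3 and at least 10 Adarb2 UMIs, 18 without doublets, and 5 to 72 with 1 library left out. Of the 4 genes, 1 was among the calls without sMCAO ipsi (Il1rapl2, so that Ebf1 and both features of the mitochondrial record were lost), 2 without mMCAO contra and 1 with at least 10 Adarb2 UMIs. With the rat pool as replicate block, since both hemispheres came from the same rats, there were 8 calls, which included the 4. For MCAO contra against Sham (0 calls) they were 1 without the filter, 1 with at least 3 Adarb2 UMIs, 3 without doublets, and 1 to 9 with 1 library left out. Vip-positive against Lamp5-positive nuclei (285 calls) gave 185 by DESeq2, 430 without the filter, 481 with sums per rat pool and 165 to 278 with 1 library left out, lowest without mMCAO contra; no gene changed sign. Vip-positive against neither nuclei (448) gave 249 by DESeq2 and 265 to 419 with 1 library left out. Lamp5-positive against neither nuclei (210) gave 137 by DESeq2 and 152 to 217. The difference from medium spiny nuclei (1) gave 0 by DESeq2, 2 without the filter, 2 without doublets, 0 with no library block and 1 to 8 with 1 library left out. In Vip-positive against neither nuclei, 3 called genes had the opposite sign by DESeq2, 4 without doublets and 6 without sMCAO ipsi. Slc1a3 reversed against neither nuclei, to −0.72 by DESeq2, −0.69 without doublets and −0.72 without sMCAO ipsi, with values up to 1.81 when another library was left out.

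Shares of GABAergic nuclei, in the order Sham L, Sham R, mMCAO contra, sMCAO contra, mMCAO ipsi and sMCAO ipsi, were 0.108%, 0.274%, 1.85%, 0.598%, 0.696% and 2.52% when at least 2 Vip and Lamp5 UMIs were required, and 1.13%, 1.30%, 2.86%, 1.5%, 1.86% and 3.10% at 2000 UMIs per nucleus. At 3000 UMIs they were 1.95%, 1.27%, 3.15%, 1.42% and 2.87% without sMCAO contra, which moved less than its interval. With at least 10 Adarb2 UMIs, sMCAO contra came to 2.06%, mMCAO ipsi to 2.14% and sMCAO ipsi to 4.88%. The Vip-positive share of members, in the same order, was 50%, 75%, 72.1%, 77.8%, 50% and 74.2% with at least 2 UMIs. It was 60%, 41.2% and 75% in Sham L, mMCAO ipsi and sMCAO ipsi at 2000 UMIs, 31.6%, 8.33% and 52.4% in mMCAO contra, mMCAO ipsi and sMCAO ipsi at 3000 UMIs, and 50% in sMCAO ipsi with at least 10 Adarb2 UMIs. Comparisons with Sham at 2 Vip and Lamp5 UMIs, the classes at 2 UMIs and the interaction with Sst nuclei were not run, for too few nuclei.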
